A study of Homo sapiens with 2 samples.

Results

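The S100 proteins are small calcium-binding proteins, and 10 of their genes were read on expression arrays of AsPC-1 cells, a human pancreatic ductal adenocarcinoma (PDAC) line, after transfection with PGR siRNA or with control siRNA. The genes were S100A2, S100A4, S100A6, S100A8, S100A10, S100A11, S100A13, S100A14, S100A16 and S100P. Every probe set annotated to exactly one of these symbols was taken, which gave 14 probe sets of 41097 with a single symbol, and 10 genes of 19775. PGR is the progesterone receptor, a steroid-responsive transcription factor, and the array was run to find genes that differ when PGR is silenced. There was 1 array labelled PGR siRNA and 1 array labelled control, both from cells of the same line in medium with fetal bovine serum, so no test could be made and no value carries a replicate error.

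S100 proteins carry a pair of EF-hand motifs that hold calcium, and most of them act as dimers that open on calcium binding and then grip a target protein. Inside the cell these targets include annexins, myosin and ezrin, and some S100 proteins are also released and bind the cell surface receptor RAGE. Most of the genes lie side by side on chromosome 1, whereas S100P lies alone on chromosome 4. In PDAC the family is known for S100P, S100A4 and S100A6, which are studied as markers of tumour cells and of invasion.

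The promoter sequences of 5 genes are shown because the family falls into genes that were read on these arrays and genes that were not, and the counts of CG dinucleotides in their windows are compared further on. Each is the RefSeq window of 300 bases in GRCh38.p14, 250 before to 50 after the annotated start, written 5′ to 3′ on the strand of the gene. Capitals mark every CG dinucleotide and the letters TATAAA. S100A6, S100A10, S100A11 and S100P were read well above the signal floor, and S100A8 was below it.
S100A6, chr1:153535942-153536241, minus strand: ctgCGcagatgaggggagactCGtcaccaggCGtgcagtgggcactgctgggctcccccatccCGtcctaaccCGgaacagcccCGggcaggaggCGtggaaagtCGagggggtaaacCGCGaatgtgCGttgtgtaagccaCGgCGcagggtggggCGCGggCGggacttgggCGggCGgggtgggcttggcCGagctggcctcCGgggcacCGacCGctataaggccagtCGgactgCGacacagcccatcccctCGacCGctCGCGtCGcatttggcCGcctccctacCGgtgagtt
S100A10, chr1:151993810-151994109, minus strand: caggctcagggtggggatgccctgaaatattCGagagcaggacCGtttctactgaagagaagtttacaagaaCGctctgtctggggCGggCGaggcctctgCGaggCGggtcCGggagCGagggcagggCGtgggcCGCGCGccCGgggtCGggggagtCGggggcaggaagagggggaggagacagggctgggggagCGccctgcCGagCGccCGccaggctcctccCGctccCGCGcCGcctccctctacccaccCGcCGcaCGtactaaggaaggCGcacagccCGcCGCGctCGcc
S100A11, chr1:152036955-152037254, minus strand: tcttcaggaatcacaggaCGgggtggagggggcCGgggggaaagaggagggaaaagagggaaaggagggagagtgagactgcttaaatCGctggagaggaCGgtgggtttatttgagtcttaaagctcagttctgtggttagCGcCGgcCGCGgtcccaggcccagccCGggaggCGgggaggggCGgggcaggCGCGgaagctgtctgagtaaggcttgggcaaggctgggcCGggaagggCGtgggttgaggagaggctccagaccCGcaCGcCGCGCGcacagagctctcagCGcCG
S100P, chr4:6693628-6693927, plus strand: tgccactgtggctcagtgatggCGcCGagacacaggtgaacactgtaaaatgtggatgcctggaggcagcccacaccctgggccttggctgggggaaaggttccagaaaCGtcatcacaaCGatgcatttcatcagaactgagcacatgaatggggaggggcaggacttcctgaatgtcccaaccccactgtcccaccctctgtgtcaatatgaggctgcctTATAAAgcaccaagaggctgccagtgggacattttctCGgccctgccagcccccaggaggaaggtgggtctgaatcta
S100A8, chr1:153391024-153391323, minus strand: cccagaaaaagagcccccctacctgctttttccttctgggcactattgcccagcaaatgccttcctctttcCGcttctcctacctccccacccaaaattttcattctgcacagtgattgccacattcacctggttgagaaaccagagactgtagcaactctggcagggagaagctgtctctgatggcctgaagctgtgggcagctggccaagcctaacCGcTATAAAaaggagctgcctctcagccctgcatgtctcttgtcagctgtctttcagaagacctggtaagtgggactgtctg
The windows of S100A10, S100A6 and S100A11 held 32, 31 and 22 CG dinucleotides and no TATAAA. That of S100P held 5, with TATAAA 28 bases before the start, and the S100A8 window shown, the one of its 3 with TATAAA 29 bases before the start, held 2.

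The arrays had been scaled to a common level, since their trimmed means, which leave out the 2% lowest and 2% highest values, were both 500.1. The signal floor was 97.9, the median of all values of probe sets with a single symbol, and a probe set was counted if its higher value reached it. PGR, the targeted gene, read 73.3 on the array labelled PGR siRNA, against 16.1 on the array labelled control, with its brighter probe set. Both values lie below the floor, so they do not check the labels, and their order runs against them. The epithelial markers KRT8, KRT18, KRT19, EPCAM and CDH1 reached the floor on both arrays, 5 of 5. None of 6 myeloid markers, 0 of 3 endothelial and 0 of 3 squamous markers on the array did so, and of 4 fibroblast markers 1 did. By the higher value alone, 2 myeloid markers (CD14 and CSF3R) and 1 endothelial marker (PECAM1) reached the floor. So did 2 fibroblast markers (COL1A1 and DCN) and 0 squamous markers. Both arrays read bulk RNA of a single cell line, in which fewer cells with a transcript and less of it per cell cannot be told apart.

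Of the 14 probe sets, 12 reached the floor, and they read 9 of the 10 genes. No S100 probe set differed by as much as 1.5-fold between the arrays in either direction. Over all 21528 probe sets that reached the floor, the background was 4.61% higher by 1.5-fold or more and 6.21% lower by 1.5-fold or more. At 2-fold these shares were 1.52% and 1.93%, and the S100 count was again 0 of 12 each way. Most of the S100 probe sets are bright, and such differences are rarer there. Of the 1000 probe sets nearest in signal to S100A6, 1 was higher and 2 were lower by 1.5-fold or more.

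**Figure D1:**
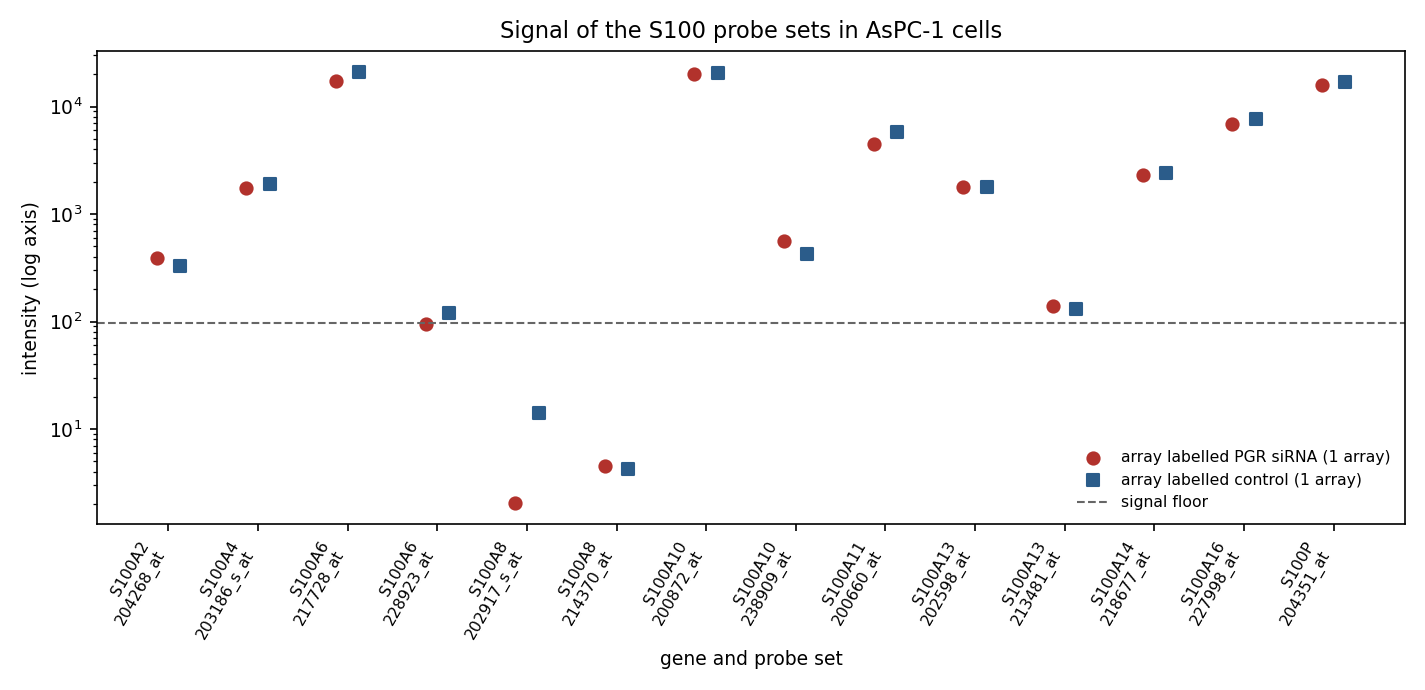
Intensity (log axis) of each of the 14 S100 probe sets on the array labelled PGR siRNA (circles) and on the array labelled control (squares), 1 array each, with the signal floor of 97.9 as a dashed line. The paired points lie close together for the 12 probe sets that reach the floor, while both S100A8 probe sets lie far below it.

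S100A11 and S100A6 had the lowest differences of the genes read. S100A11, which binds annexin A1, read 4508 on the array labelled PGR siRNA, against 5813 on the array labelled control. Its log2 difference was -0.37, so that the reading was 77.5% of that on the array labelled control. Among the 1000 probe sets nearest in signal the middle 95% ran from -0.39 to 0.35, and 33 of the 1000 lay lower than S100A11. S100A6, also called calcyclin, read 17209.9 on the array labelled PGR siRNA, against 20822 on the array labelled control. The difference was -0.27, just outside the middle 95% of its neighbours in signal, from -0.27 to 0.33, with 23 of 1000 lower. It was the 1 S100 probe set of 12 outside such a range. The dimmer S100A6 probe set read 95.9 on the array labelled PGR siRNA, against 120.2 on the array labelled control. Its difference of -0.32 had the same sign, but the first of these values is below the floor, and at that signal the middle 95% is wide, from -1.16 to 1.03.

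The remaining bright genes differed by less. S100P, a gene raised in many pancreatic tumours, read 15760.3 on the array labelled PGR siRNA, against 16800.5 on the array labelled control, a log2 difference of -0.09. S100A16, a widely expressed member, read 6812 on the array labelled PGR siRNA, against 7736 on the array labelled control, a difference of -0.18. Probe sets as bright as these leaned slightly upward on the array labelled PGR siRNA, with medians of 0.069 near S100P and 0.029 near S100A16. Set against the medians of their neighbours in signal, S100P stood at -0.16, S100A16 at -0.21, S100A6 at -0.35 and S100A11 at -0.39. All of these but S100A6 lay inside the middle 95% of those neighbours.

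**Figure D2:**
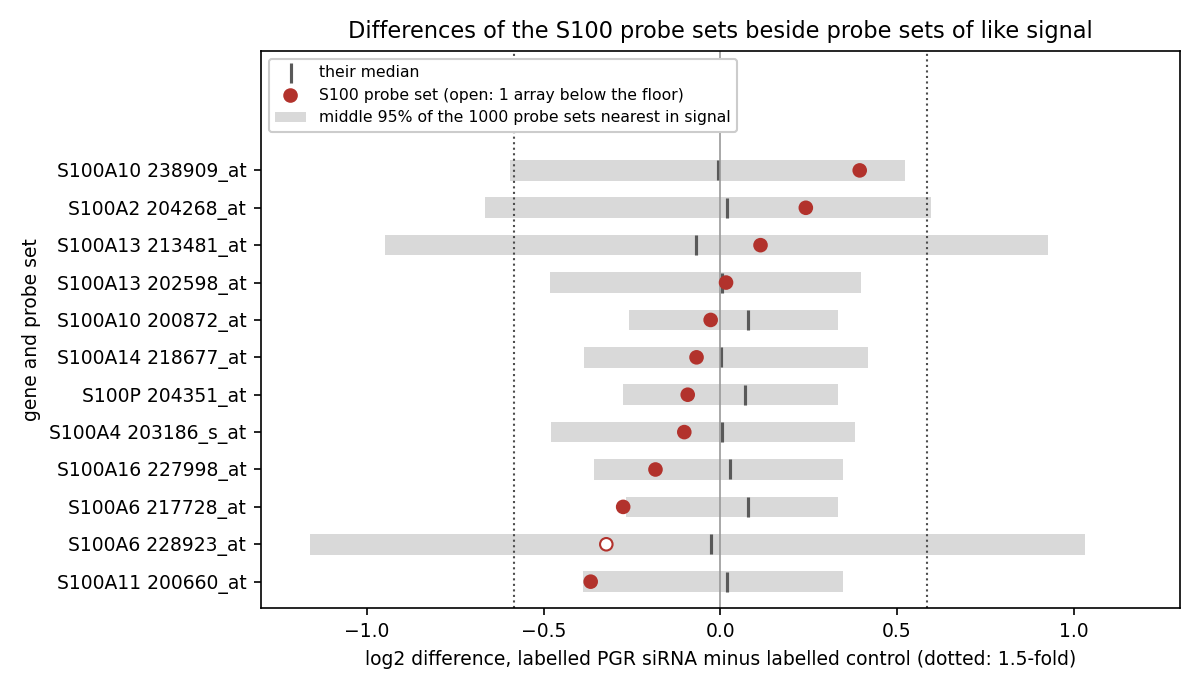
Log2 difference (array labelled PGR siRNA minus array labelled control) of the 12 S100 probe sets that reach the floor, with the middle 95% and the median of the 1000 probe sets nearest in mean signal as grey bars and ticks, and 1.5-fold as dotted lines. All points lie within 1.5-fold, from -0.37 for S100A11 to 0.39 for the dimmer S100A10 probe set, and S100A6 at -0.27 lies at the lower edge of its bar.

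S100A10, also called p11, is the member that does not need calcium and forms a complex with annexin A2 at the cell membrane. The brighter of its probe sets had 20137 on the array labelled PGR siRNA, against 20521.5 on the array labelled control, a log2 difference of -0.03. The dimmer one read 558 on the array labelled PGR siRNA, against 424 on the array labelled control, a difference of 0.39. The probe sets of this gene thus ran in opposite directions, 0.42 apart. Of 5708 genes with a second probe set that reached the floor, 24.5% had a wider gap between their brightest probe sets, and the median gap was 0.22. Both S100A10 probe sets lay inside the middle 95% of their neighbours in signal. The mean of the pair was 0.18, so the sign of the difference for S100A10 depended on which probe set was read.

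S100A13, which takes part in the release of FGF1 and IL1A from cells, read 1797 on the array labelled PGR siRNA, against 1777 on the array labelled control, a log2 difference of 0.02. Its dimmer probe set read 140.2 on the array labelled PGR siRNA, against 129 on the array labelled control, a difference of 0.11. S100A14, an epithelial member, read 2321 on the array labelled PGR siRNA, against 2432 on the array labelled control, a difference of -0.07. These differences are small beside those of probe sets of like signal, whose SD was 0.20 near S100A14 and 0.21 near S100A13. S100A4, known from metastasis and from its binding to nonmuscle myosin, read 1755 on the array labelled PGR siRNA, against 1884 on the array labelled control, a difference of -0.10. S100A2, known from squamous epithelium, read 387 on the array labelled PGR siRNA, against 327 on the array labelled control. Its difference of 0.24 was the highest of the 9 genes when each was read by its brightest probe set. At that signal the middle 95% ran from -0.67 to 0.60, and 785 of 1000 neighbours were lower. Of the 3 squamous markers, DSG3 read 56.0 on the array labelled PGR siRNA, against 2.75 on the array labelled control. KRT14 read 24.5 against 1.74 and KRT5 22.3 against 12.8, in the same order. Of the epidermal cluster on chromosome 1, IVL read 6.31 against 59.7, in the opposite order, and LORICRIN 4.25 against 2.25, in the same order. All of these values are below the floor, so no fold is given and no direction is read from them. The part of these genes in the S100A2 reading was not tested.

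S100A8, which pairs with S100A9 to form the calprotectin of neutrophils, had no usable signal. One of its probe sets read 2.06 on the array labelled PGR siRNA, against 14.1 on the array labelled control, and the other read 4.51 on the array labelled PGR siRNA, against 4.22 on the array labelled control. All of these values are far below the floor, so no fold is given. S100A9 was below the floor too, at 46.3 on the array labelled PGR siRNA, against 9.75 on the array labelled control.

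Read by its brightest probe set, 7 of the 9 genes were lower and 2 were higher on the array labelled PGR siRNA, or 6 lower and 3 higher with both arrays centred on their median, where S100A10 turned to 0.02. Over all 11614 genes that reached the floor 46.8% were lower. The median of the 9 genes was -0.09, against 0.021 over all genes, and it ran from -0.13 to -0.04 over the other settings. The value of -0.04 came with median centring, where the median over all genes was 0.072. None of the 9 differed by 1.5-fold or by 2-fold. Of all genes, 3.65% were higher and 4.72% lower by the first rule, and 1.11% were higher and 1.58% lower by the second. The 9 differences ranged from -0.37 to 0.24.

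**Figure D3:**
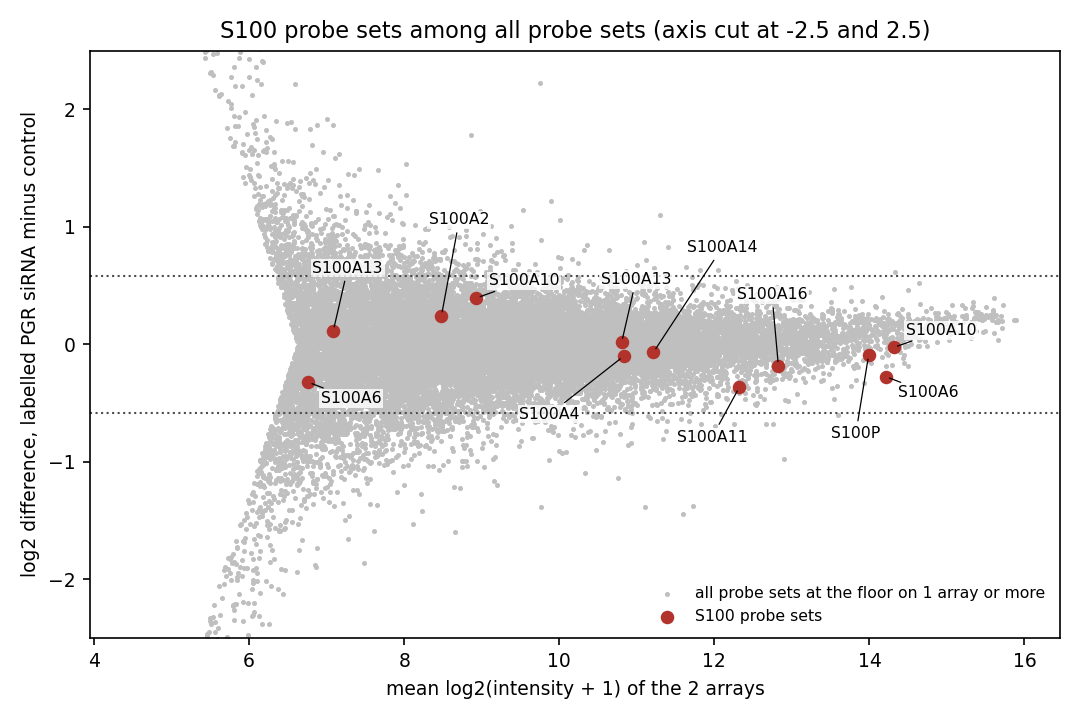
Log2 difference (array labelled PGR siRNA minus array labelled control) against the mean log2 signal, with 1 grey point for each probe set that reaches the floor, the 12 S100 probe sets in red, and 1.5-fold as dotted lines. The S100 probe sets lie between the dotted lines, and the bright ones, S100A6, S100A10 and S100P, sit where the scatter of all probe sets is narrowest.

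The other small S100 genes were all below the floor on both arrays. They were S100A1, S100A3, S100A5, S100A7, S100A7A, S100A9, S100A12, S100B, S100G and S100Z, 10 genes. S100A7A read 84.2 on the array labelled PGR siRNA, against 43.0 on the array labelled control, with its brighter probe set. S100A7 and S100A7A are made by skin keratinocytes, S100A12 by myeloid cells, S100B by glia and S100G by the gut. Of the fused-type S100 genes, which build the outer layers of skin and hair, FLG, FLG2, RPTN and CRNN were below the floor as well. TCHH, which codes for trichohyalin of the hair follicle, was the 1 gene that reached it, of 15 other family members on the array. It read 873 on the array labelled PGR siRNA, against 668 on the array labelled control, a log2 difference of 0.38, and 941 of its 1000 neighbours in signal were lower.

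Along chromosome 1, genes with and without usable signal alternated between S100A6 and S100A2 and stood in runs elsewhere. In the order of RefSeq, S100A6 reached the floor, S100A5 did not, S100A4 did, S100A3 did not, and S100A2, S100A16, S100A14 and S100A13 did, followed by S100A1, which did not. S100A9, S100A12, S100A8, S100A7A and S100A7, which come before S100A6, were all below the floor. S100A10 and S100A11 lie apart from this group, on the far side of the epidermal genes, and both reached it. Of 16 small S100 genes on chromosome 1 with a probe set, 8 reached the floor, and of 41 other genes in the same stretch, taken with 10 coding genes on either side, 20 did. The fused-type genes TCHH, RPTN, FLG, FLG2 and CRNN are counted among the 41, and TCHH among the 20.

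**Figure D4:**
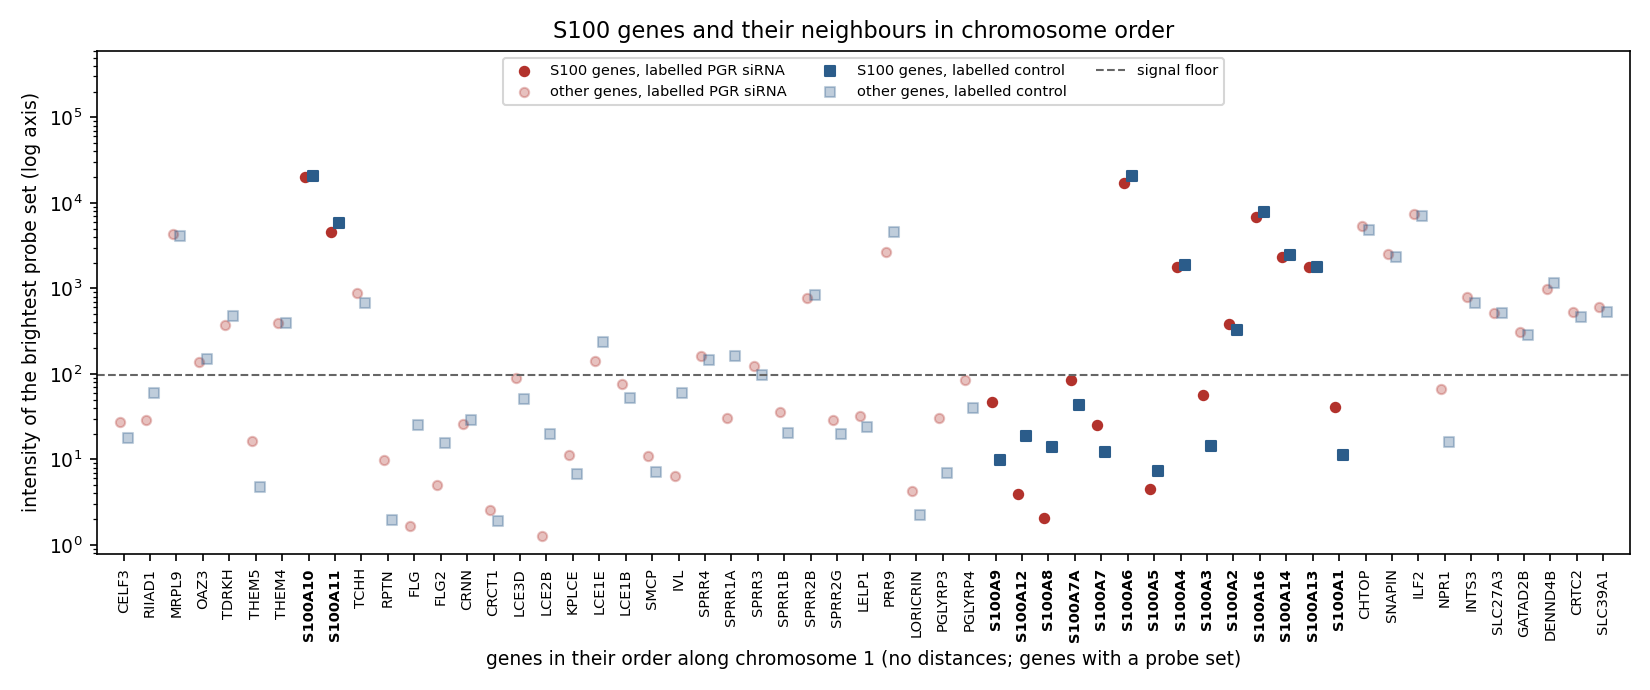
Intensity (log axis) of the brightest probe set of each gene on the array labelled PGR siRNA (circles) and the array labelled control (squares), in gene order along chromosome 1 with no distances, S100 genes in full colour and other genes pale. The fused-type S100 genes are among the pale ones. Each S100 gene lies above the dashed floor on both arrays or below it on both, and genes above and below the floor alternate between S100A6 and S100A2.

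The median difference of the 20 neighbours read was 0.075, and 3 of them were lower and 0 higher by 1.5-fold or more, against 4.72% lower and 3.65% higher over all genes. Over the 28 neighbour probe sets that reached the floor, 4 were lower and 0 higher, against 6.21% lower and 4.61% higher over all probe sets. PRR9, a proline-rich gene of the epidermal cluster, read 2629 on the array labelled PGR siRNA, against 4516 on the array labelled control, a log2 difference of -0.78. LCE1E, of the cornified envelope, stood at -0.74 with another probe set at 0.06. SPRR1A, also of the cornified envelope, read 30.5 on the array labelled PGR siRNA, against 163 on the array labelled control, and the first of these values does not reach the floor. Other epidermal genes of the stretch ran either way, with TCHH at 0.38, SPRR3 at 0.36, SPRR4 at 0.15 and SPRR2B at -0.11. The control value of SPRR3 was below the floor. Of the 20 neighbours, 12 were higher and 8 were lower on the array labelled PGR siRNA. The widely expressed genes next to the S100 group, such as ILF2 at 0.09, CHTOP at 0.13, SNAPIN at 0.11 and INTS3 at 0.25, were within 1.5-fold, like the S100 genes themselves. TDRKH, a flanking gene, stood at -0.36 with its brighter probe set. Its dimmer one read 65.0 on the array labelled PGR siRNA, which is below the floor, against 100 on the array labelled control, a difference of -0.61.

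RefSeq promoter windows were found for all 10 genes and for 9 of the other 10 small S100 genes. The 9 genes that reached the floor had 13 windows, with a median of 8 CG dinucleotides and a range from 3 to 32. The 10 that did not had 13 windows, with a median of 3 and a range from 1 to 6. The median over all 35116 windows of RefSeq was 14. Only S100A10, S100A6, S100A11 and S100A13 had a window above that median, and the windows of the other 5 genes read here, S100P among them, held 3 to 8. Windows of the same gene can overlap and share sequence, and which start AsPC-1 cells use was not tested.

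**Figure D5:**
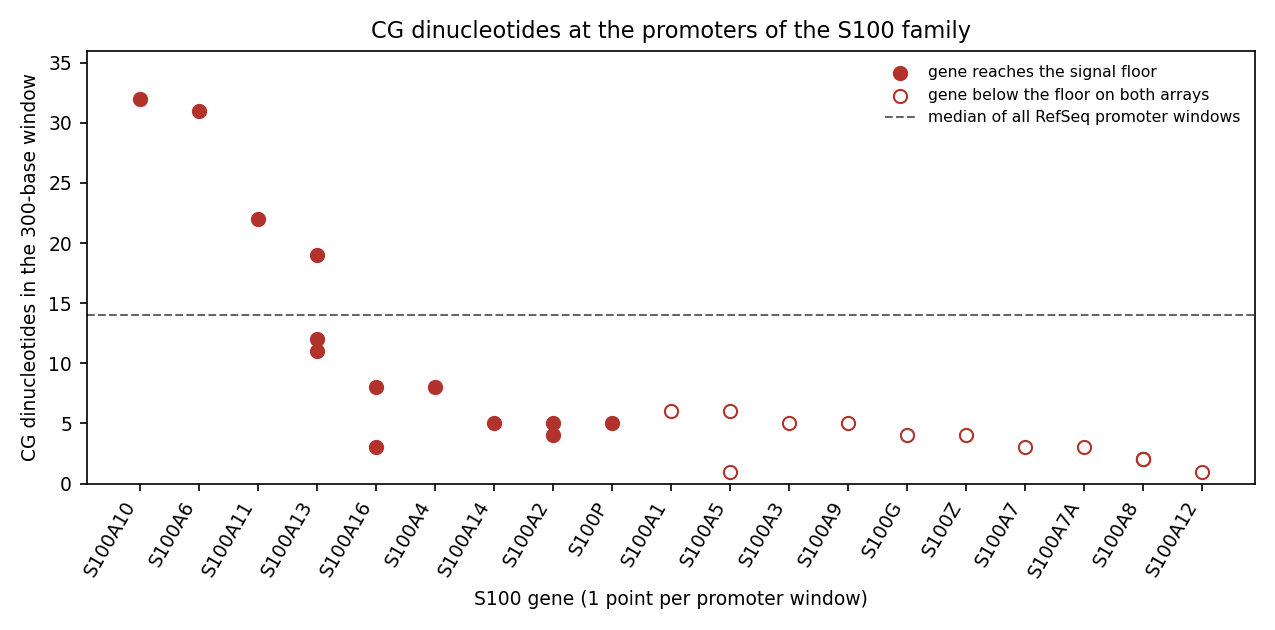
Number of CG dinucleotides in each 300-base RefSeq promoter window of the S100 genes, with 1 point per window, filled where the gene reached the signal floor and open where it did not, and the median of all windows dashed. The filled points run from 3 to 32 and the open points from 1 to 6, with an overlap between 3 and 6.

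TATAAA, searched on both strands, stood in 3 of the 13 windows of genes that reached the floor and in 8 of the 13 windows of genes that did not, against 11.5% of all windows. S100P, S100A4 and S100A13 were the genes of the first kind that held it. Of the other kind, overlapping S100A8 windows held the same site, 29 and 126 bases before their starts, so it was counted in each. In S100A12 and S100Z the letters stood 8 and 11 bases before the start. The core of the progesterone receptor element, ACANNNTGT, which reads the same on both strands, stood in 0 of the 13 windows of genes that reached the floor and in 2 of the other 13, those of S100A9 and S100A1, against 5.37% of all windows. The letters AGAACA, 1 arm of that element, searched on both strands, stood in 0 of the 13 windows of genes that reached the floor and in 1 of the other 13, that of S100A3, against 14.8% of all windows. A match is only a run of letters in this window, and no match says nothing of binding elsewhere.

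Of 28 genes that code for binding partners, receptors or targets of S100 proteins, all were on the array and 22 reached the floor, with a median log2 difference of -0.03. Read by the brightest probe set, 0 of the 22 were higher and 1 was lower by 1.5-fold or more, against 3.65% higher and 4.72% lower over all genes. That gene was DLC1, a GTPase-activating protein for RHOA that S100A10 binds, which read 213 on the array labelled PGR siRNA, against 388 on the array labelled control, a difference of -0.86. Another probe set of DLC1 stood at -0.25. Over all 52 probe sets of the list that reached the floor, 0 were higher and 5 were lower by 1.5-fold or more, against 4.61% higher and 6.21% lower over all probe sets, and the 5 belonged to PPFIBP1, DLC1, ANXA1, AHNAK and MDM2. PPFIBP1 codes for liprin beta 1, which S100A4 binds. Its lowest probe set read 190.1 on the array labelled PGR siRNA, against 462 on the array labelled control, a difference of -1.28, with 2 of its 1000 neighbours in signal lower. The brightest PPFIBP1 probe set stood at -0.15 and the others at -0.29 and -0.31. The dimmest MDM2 probe set that reached the floor stood at -0.68, and its others ran from -0.20 to 0.19. By their brightest probe sets, both partners of the membrane complex were close to level. ANXA2 read 22252 on the array labelled PGR siRNA, against 22652 on the array labelled control, a difference of -0.03. The brighter S100A10 probe set also stood at -0.03, but the dimmer one stood at 0.39. AHNAK, a giant scaffold that the same complex binds, stood at -0.35 with its brightest probe set and at -0.73 with another.

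By their brightest probe sets, partners of other members varied around 0. EZR, the ezrin that S100P binds, stood at -0.16, with its other probe sets lower too, from -0.44 to -0.04. IQGAP1, another S100P partner, stood at 0.03, with its other probe sets at -0.18 and -0.50. MYH9, the myosin heavy chain that S100A4 binds, had the highest difference of the list, at 0.37, and ANXA6, a membrane-binding annexin, stood at 0.30. CACYBP, named for its binding to S100A6, stood at 0.13, with other probe sets at 0.05 and 0.13. AGER, which codes for RAGE, and TLR4, a receptor for S100A8 and S100A9, were below the floor on both arrays.

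The annexins, calcium-dependent membrane-binding proteins and the best known targets of S100 proteins, were on the array with 11 genes, of which 9 reached the floor. Read by the brightest probe set, their median was -0.02, with 0 past 1.5-fold in either direction, against 3.65% higher and 4.72% lower over all genes. Over the 16 annexin probe sets that reached the floor, 0 were higher and 1, the dimmer of ANXA1, was lower by 1.5-fold or more. Over all probe sets 4.61% were higher and 6.21% lower. ANXA3 was lowest, at 6727 on the array labelled PGR siRNA, against 9380.3 on the array labelled control, a difference of -0.48, with 7 of its 1000 neighbours in signal lower. ANXA9 stood at -0.18 with another probe set at -0.31, and ANXA7 at 0.18 with another at -0.25. ANXA1, the partner of S100A11, stood at 0.09 with its brighter probe set. The dimmer one read 91.5 on the array labelled PGR siRNA, against 155 on the array labelled control, a difference of -0.76, and the first of these values does not reach the floor. The median of the partner list turned to 0.02 and that of the annexins to 0.04 with both arrays centred on their median. In that setting the median over all genes was 0.072.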

How the data were processed

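Total RNA of AsPC-1 cells was labelled with biotin and hybridised to 3' expression arrays, 1 for each condition. What the authors deposited is a linear intensity for every probe set on each array. The summary algorithm, background correction and scaling method are not given in the sources used here. Probe sets were named from the platform annotation, in which 41097 had a single symbol. The 1801 with several symbols and the 11777 without any were not used. For 41043 of the first kind the RefSeq symbol was taken through the gene identifier.

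The difference is log2(intensity + 1) on the array labelled PGR siRNA less that on the array labelled control, read against rules of 1.5-fold and 2-fold. A gene with several probe sets was represented by the one of highest mean log2 signal. The calculation was tested on simulated data. The members and gene lists were chosen with earlier results of these data known. The genes named are all members, PGR, other S100 genes that reach the floor, and, of each other list, those past 1.5-fold and those at either end, and further genes were named after their values were seen. Alternatives were loess (span 0.7), quantile normalization, median centring, an offset of 16, the mean of the probe sets of a gene, no floor, a floor at the 75th percentile and a floor on both arrays. Python 3.11.15, numpy 2.4.6, pandas 2.3.3, statsmodels 0.14.6 and matplotlib 3.10.9 were used.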

Additional observations from a re-analysis of the deposited data

How the results depend on the processing

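With a single array per condition, the number of arrays limits the precision, and no setting can stand in for a second culture. No paired analysis was possible because each condition has 1 array. The count of S100 probe sets past 1.5-fold stayed at 0 in both directions with median centring, quantile normalization, loess, an offset of 16, a floor at the 75th percentile and a floor on both arrays. With no floor, 1 probe set was lower by 1.5-fold and by 2-fold, a probe set of S100A8 whose values are far below the floor. S100A6 ran from -0.37 to -0.22 and S100A11 from -0.40 to -0.32 on the log2 scale. S100A10 turned to 0.18 as a mean over both probe sets and to 0.02 with median centring. Directions rest on the labels, which PGR mRNA does not check.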

Other observations

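Calcium sensors with EF-hands outside the S100 family were looked at in the same way. Of 29 such genes on the array 26 reached the floor, with a median log2 difference of 0.037, against -0.09 for the S100 genes, and the spans of these lists overlap. Read by the brightest probe set, 0 of the 26 were higher and 1 was lower by 1.5-fold or more, against 3.65% higher and 4.72% lower over all genes. Over the 47 probe sets of the list that reached the floor 2 were higher and 2 were lower, against 4.61% higher and 6.21% lower over all probe sets. The 2 higher belonged to NUCB1 and CALU and the 2 lower to NUCB1 and STIM2, a calcium sensor of the endoplasmic reticulum. This STIM2 probe set read 76.5 on the array labelled PGR siRNA, which is below the floor, against 129 on the array labelled control. Brighter STIM2 probe sets stood at -0.06 and 0.07. The lower gene by the brightest probe set was NUCB1, a calcium-binding protein of the Golgi, at -0.61, and another of its probe sets stood at 0.81 with its control value below the floor. By the brightest probe set CETN2, a centrin of the centriole, was highest at 0.39, followed by EFHD1 at 0.20. CALML4, a calmodulin-like protein, was at -0.28, with other probe sets at 0.42 and -0.42. The last read 82.7 on the array labelled PGR siRNA, which is below the floor.

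CALU, the calumenin of the endoplasmic reticulum, was named after its values were seen. It had 5 probe sets past the floor on both arrays, all higher on the array labelled PGR siRNA, at 0.19, 0.38, 0.15, 0.57 and 0.88. Those at 0.38 and 0.57 lay above the middle 95% of their neighbours in signal, and those at 0.19, 0.15 and 0.88 lay inside it. For the last, the dimmest, the middle 95% ran from -0.96 to 0.91. All 5 were read on the same pair of arrays, so they are not independent readings.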
